A study of Mus musculus with 2 samples.

Results

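The 10 genes described here encode proteins of the muscle thick filament or proteins that regulate or anchor it: the myosin heavy chains Myh1, Myh2, Myh4 and Myh7, the myosin light chains Myl1 and Mylpf, the light chain kinase Mylk2, the myosin binding proteins Mybpc1 and Mybpc2, and the M-band protein Myom1. They were chosen by name, and all 10 were found among the 22380 protein-coding genes of the mm9 GENCODE vM1 annotation. All 10 also belong to the 3888 protein-coding genes that carried at least 20 Mbnl2 tags. The study used HITS-CLIP, in which a protein is crosslinked to the RNA it touches, the RNA is trimmed with RNase, the protein is immunopurified and the short RNA pieces that come with it are sequenced as tags. Mbnl2 is a muscleblind-like splicing regulator, and its tags were collected from quadriceps muscle to ask how its RNA contacts differ when its paralogue Mbnl1 is missing.

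The WT group and the Mbnl1 KO group (Mbnl1-/-, a constitutive loss of Mbnl1) each held 3 C57BL/6 mice of 15 to 16 weeks, and no treatment is labelled. The strain is as labelled; the study's methods name a mixed C57BL/129 background for the heterozygous Mbnl1 and Mbnl2 mice that were crossed for compound knockouts. The labels name no change at Mbnl2 in either group, and the 2 RNase concentrations of the protocol cannot be separated in the deposited tables. Each genotype was deposited as 1 merged table, with 343554 WT tags and 476543 Mbnl1 KO tags. The tags of each table carry 3 display colours, which split it into 3 sets. In the Mbnl1 KO table the set totals equal the library totals listed for the individual mice, so the colours were read as mice. The same reading was assumed for WT, where no such list was at hand. The WT sets held 47008, 139576 and 156970 tags and the Mbnl1 KO sets held 250572, 88768 and 137203 tags.

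These libraries also differed in ways that reach every gene. Tags whose reference sequence is at least 70% 1 base, called single-base tags here, made up 36.5% to 50.3% of the tags in the WT sets and 16.0% to 18.5% in the Mbnl1 KO sets. The WT table rests on 5176203 reads and the Mbnl1 KO table on 50329234, with 79.0% and 59.5% of tags seen in a single read. Of the tags over protein-coding genes, 43.9% in WT and 27.2% in Mbnl1 KO muscle lay on the opposite strand, and over the 10 genes 6.71% and 1.95% did. The part of these differences in the results was not tested beyond the alternatives given. The single-base share enters every value below that is scaled to the total, and the 10 genes themselves held 4 single-base tags in WT and 4 in Mbnl1 KO muscle. As a check of the labels, the exon of Mbnl1 with the start codon had 5 tags in WT against 2 in Mbnl1 KO, for a ratio of 0.288 (0.0275 to 1.76, 95% Clopper-Pearson interval). The whole Mbnl1 gene had 100 against 452, for 3.26 (2.62 to 4.09). The intervals did not overlap, but the exon counts are few, and the next exon had 0 and 4 tags. Markers of fast skeletal muscle were present in both genotypes, with 9 of 9 genes at 20 tags or more, while heart markers had 7 WT and 3 Mbnl1 KO tags in all and Nppa had 0.

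Thick filaments are bundles of myosin. Each myosin molecule has a pair of heavy chains, which carry the motor domain and the rod, and light chains that wrap the neck of the motor. The heavy chain sets the speed of a fibre: Myh4, Myh1 and Myh2 encode the fast IIb, IIx and IIa chains, and Myh7 encodes the slow chain of type I fibres, which is also used in the heart. Muscleblind-like proteins recognise RNA motifs in which GC is flanked by pyrimidines, and they are best known for switching exons between fetal and adult patterns in muscle and for binding 3′ UTRs.

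All 10 genes carried more tags in Mbnl1 KO muscle than in WT, also relative to all tags. Together they had 320 WT and 1260 Mbnl1 KO tags. Scaled to 1000000 tags of the set, called normalised tags below, this was 702, 788 and 1128 in the WT sets and 2710, 2659 and 2515 in the Mbnl1 KO sets, with means of 873 ± 225 and 2628 ± 101 (SD, n = 3 each). The 3 Mbnl1 KO sets lay above the 3 WT sets, and an exact two-sided permutation test gave p = 0.10, the smallest that 3 against 3 allows. The merged Mbnl1 KO/WT ratio was 2.84 (95% Clopper-Pearson interval 2.51 to 3.22). This interval, like those below, covers counting error only. The number of CLIP tags depends on the amounts of the transcript and of the immunopurified protein as well as on binding. The study reports raised Mbnl2 protein in Mbnl1 KO muscle. Since RNA and protein levels were not analysed here, these parts cannot be told apart. Nor can fewer cells of a type and less RNA per cell in whole muscle.

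Gene by gene, the ratio ran from 2.28 at Myh4 to 5.65 at Mylpf, with a median of 2.97. The median over all 3888 genes was 1.75, and 19.9% of them had a ratio above the median of the 10. Over exons alone the order turned, with a median of 3.00 over the 10 genes and 3.20 over the 1145 genes with at least 20 exon tags. The 10 include Mylk2, which fell short of 20 exon tags (4 WT and 15 Mbnl1 KO). At 9 of the 10 genes the interval was wholly above 1, against 38.6% of all genes, and Myh7 was the exception. At all 10 genes every Mbnl1 KO set was above every WT set, which was so at 44.2% of all genes. With edgeR's quasi-likelihood test over the 6 sets, scaled to all tags, 8 of the 10 passed an adjusted p of 0.05 upward (all but Myh7 and Mylk2), against 29.6% of genes.

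The scaling and the choice of tags mattered for these calls. Scaling to all tags left the median gene at a log2 difference of 0.79, and TMM, which centres the genes themselves, brought it to 0.099. All tags gave 1149 genes higher and 80 lower in Mbnl1 KO muscle, and TMM gave 204 higher and 249 lower. With TMM 5 of the 10 genes were called higher (Myh1, Myh2, Myl1, Mylpf and Mybpc1), against 5.25% of genes. With single-base tags left out, 6 of 10 were called higher when scaled to all remaining tags (Myom1 and Mybpc2 were lost from the 8), against 12.2% of genes, and 0 of 10 with TMM, against 0.212% of genes. In that last edgeR fit 4 of the 10 were higher at an unadjusted p under 0.05, against 333 of 3307 genes. The log2 difference stayed positive at all 10 genes in each of these fits. Tags seen in at least 2 reads ended the calls: edgeR scaled to all such tags called 0 of the 8 genes that kept 20 tags, against 56 of 1742 genes. At an unadjusted p under 0.05 these counts were 6 of the 8 and 343 of 1742. With those tags the pooled ratio was 1.85 (1.56 to 2.19), and 1.55 (1.31 to 1.84) without single-base tags as well.

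**Figure D1:**
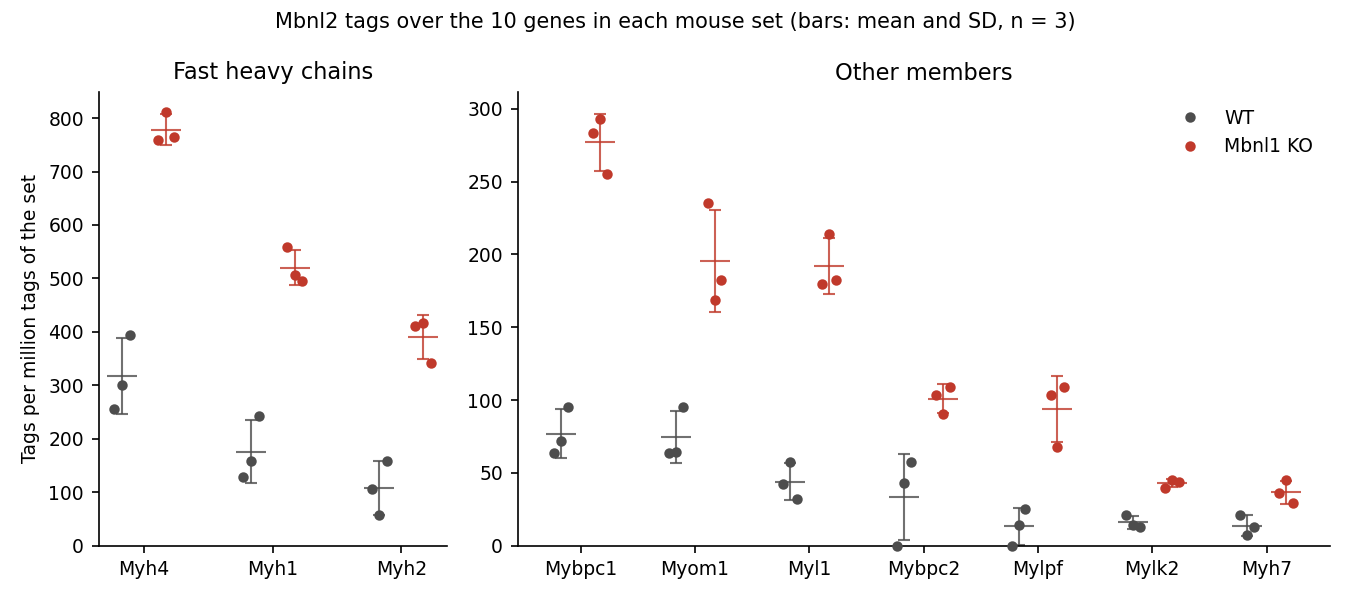
Normalised tags (vertical axes, which differ between the panels) over each of the 10 genes in the 3 WT and 3 Mbnl1 KO mouse sets, with 1 point per set and bars for the mean and SD. At every gene the 3 Mbnl1 KO points lie above the 3 WT points, by the least margin at Myh7, where the lowest Mbnl1 KO set had 29.2 and the highest WT set 21.3 normalised tags.

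**Figure D2:**
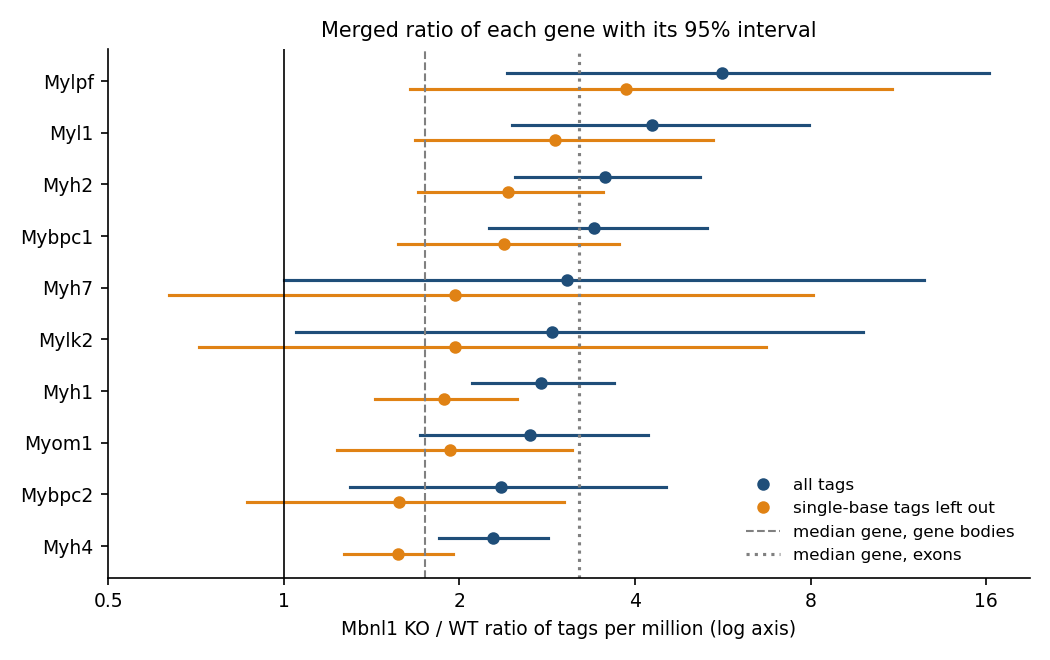
Merged Mbnl1 KO/WT ratio of normalised tags for each gene on a log axis, with 95% intervals as lines, for all tags (blue) and without the single-base tags (orange). The dashed line marks the median gene over gene bodies (1.75) and the dotted line the median gene over exons (3.20), both with all tags; the 10 ratios fall on both sides of the dotted line.

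Myh4 encodes the fastest heavy chain and held the most tags of the 10 genes. It lies on chromosome 11 from 67051314 to 67073948, plus strand (mm9, as for all positions here). It had 255, 301 and 395 normalised tags in the WT sets and 758, 811 and 765 in the Mbnl1 KO sets, so the genotypes did not overlap. The 116 WT and 367 Mbnl1 KO tags gave a ratio of 2.28 (1.85 to 2.84), the lowest of the 10. In edgeR the log2 difference was 1.24 ± 0.29 (SE, adjusted p = 0.000544) when scaled to all tags and 0.52 ± 0.23 with TMM, where the edgeR adjusted p was 0.129.

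Myh1, the IIx chain (chromosome 11, 67013554 to 67038078), had 128, 158 and 242 normalised tags in WT and 559, 507 and 496 in Mbnl1 KO muscle. The ratio was 2.76 (2.10 to 3.68). By edgeR the gene rose by a log2 difference of 1.48 ± 0.31 (adjusted p = 0.000143), and it rose with TMM too, by 0.77 ± 0.26 (edgeR adjusted p = 0.0486). The TMM call was lost when any set but WT set 3 was left out (edgeR adjusted p from 0.0708 to 0.186).

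Myh2, the IIa chain (chromosome 11, 66984529 to 67011019), had 106, 57.3 and 159 normalised tags in WT and 411, 417 and 343 in Mbnl1 KO muscle. Its ratio of 3.55 (2.49 to 5.17) was the highest of the fast heavy chains. The log2 difference was 1.82 ± 0.34 in edgeR (adjusted p = 2.77e-05) and 1.13 ± 0.30 with TMM (edgeR adjusted p = 0.0130), where the call was lost without WT set 2 (0.160). Without the WT set with the most tags the ratio was 5.63. Transcripts on the opposite strand overlap Myh1 and Myh2, and the tables keep the strand of each tag, so those were counted apart.

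Myh7, the slow chain (chromosome 14, 55589525 to 55613471, minus strand), was nearly bare of tags. The WT sets had 21.3, 7.16 and 12.7 normalised tags from 1, 1 and 2 tags, and the Mbnl1 KO sets had 35.9, 45.1 and 29.2 from 9, 4 and 4 tags. The genotypes did not overlap, but the ratio of 3.06 had an interval from 0.999 to 12.5, and the edgeR test did not pass (log2 difference 1.54 ± 0.75, adjusted p = 0.102). At this depth no difference could be detected.

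Levels of different genes were compared per kb of annotated exon, counting tags that touched an exon. In Mbnl1 KO muscle Myh4 stood at 124 normalised exon tags per kb (exact Poisson interval 112 to 138), Myh1 at 73.0 (63.7 to 83.3), Myh2 at 48.5 (41.4 to 56.5) and Myh7 at 3.91 (2.24 to 6.35). The intervals of these 4 heavy chains did not overlap. In WT the same order held, at 53.0, 24.3, 14.7 and 1.36, and the intervals of Myh1 (18.2 to 31.8) and Myh2 (10.3 to 20.3) overlapped. Set by set, the order Myh4, Myh1, Myh2, Myh7 was seen in 5 of 6 sets; in the WT set with the fewest tags Myh1 and Myh2 changed places, at 13.4 and 14.9.

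The heavy chain genes are close copies, which limits how far their tags can be assigned. Over the aligned coding sequence, Myh4 shares 90.2% of its bases with Myh1, 88.2% with Myh2 and 77.5% with Myh7. The reference sequence of 129 of 483 Myh4 tags, 128 of 319 Myh1 tags, 106 of 225 Myh2 tags and 9 of 21 Myh7 tags also occurs in an exon of another heavy chain gene, and how such reads were placed is not given in the sources used here. Without them the ratio was 2.25 (1.76 to 2.90) at Myh4, 3.11 (2.15 to 4.60) at Myh1, 4.64 (2.73 to 8.43) at Myh2 and 2.16 (0.540 to 12.4) at Myh7.

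Tags of the fast heavy chains were spread over most of their coding exons. Myh4 had tags in 37 of its 38 coding exons, Myh1 in 34 of 38 and Myh2 in 34 of 38, while Myh7 had tags in 5 of 38. Tags covered 64.6% of the Myh4 coding bases, 51.3% in Myh1, 44.1% in Myh2 and 3.14% in Myh7. Of the Mbnl1 KO tags in the Myh4 coding sequence, 36.1%, 27.6% and 36.4% fell in its first, middle and last part of equal length. The corresponding WT shares were 32.4%, 32.4% and 35.2%. In Myh1 the Mbnl1 KO shares were 35.8%, 37.2% and 27.1%. Myh2 was the least even in WT, at 17.1%, 34.3% and 48.6% of 35 tags, and stood at 31.3%, 35.0% and 33.7% in Mbnl1 KO muscle.

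**Figure D3:**
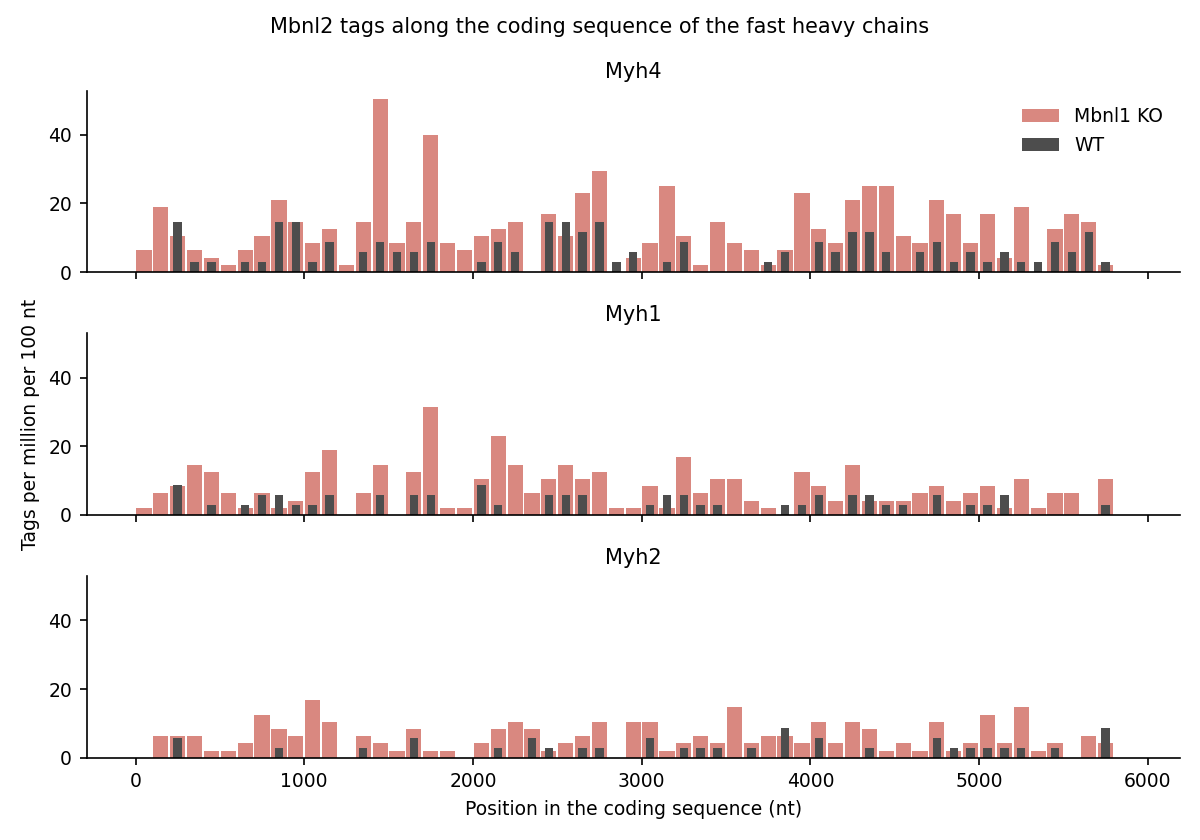
Normalised tags in bins of 100 nt along the coding sequence of Myh4, Myh1 and Myh2, by the midpoint of the tag, with Mbnl1 KO as wide bars and WT as narrow bars in front. Tags are spread over the coding sequence in all 3 genes, and the tallest bin of Myh4 (24 Mbnl1 KO and 3 WT tags) starts at position 1400.

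Overlapping tags were joined into clusters, 521 in the 10 genes, of which 209 were a single tag and 96 had at least 5. Clusters were named by their tags in both tables pooled, so their counts are given as a description. Clusters with at least 20 tags were found only in Myh4. The largest of the 10 genes lay in exon 30 of 39 of Myh4, from 67068842 to 67068975, with 8 WT and 22 Mbnl1 KO tags from all 6 sets. None of its 30 tags has a sequence shared with another heavy chain exon. Its densest 30 bases hold 4 copies of the motif YGCY, which stands for TGCT or CGCT or TGCC or CGCC and was searched on the strand of the gene, with overlapping copies counted. The matching 30 bases of the paralogues are set beside it to show how the site differs where other genes carry fewer tags, with motif bases in capitals:
Myh4 (chr11:67068933-67068962): gtctaaCGCTGCCtgCGCTgCGCTtgataa
Myh1 (chr11:67032812-67032841): gaccaacgcagcctgCGCCGCCctggacaa
Myh2 (chr11:67006037-67006066): gaccaaCGCTGCTtgTGCCGCCctggacaa
Myh7 (chr14:55594093-55594122, minus strand): ctccaaTGCCGCCGCCgcagccctggacaa
The Myh4 window had 4 WT and 12 Mbnl1 KO tags. The Myh1 window, 23 of 30 bases identical and with 2 motifs, had 1 WT and 1 Mbnl1 KO tag. The Myh2 window, 22 of 30 identical and with 4 motifs, had 0 WT and 2 Mbnl1 KO tags, and that of Myh7, 20 of 30 identical and with 3 motifs, had 0 WT and 1 Mbnl1 KO tag.

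The other Myh4 cluster with at least 20 tags lay in exon 14, from 67059876 to 67059965, with 2 WT and 21 Mbnl1 KO tags. Of its 23 tags, 10 have a sequence shared with another heavy chain exon. Its densest 30 bases hold 0 YGCY motifs and are nearly the same in all 4 genes, as these windows show:
Myh4 (chr11:67059881-67059910): cttggagcagctgtgcatcaacttcaccaa
Myh1 (chr11:67020930-67020959): cctggagcagctgtgcatcaacttcaccaa
Myh2 (chr11:66994285-66994314): cctggaacagctgtgcatcaacttcaccaa
Myh7 (chr14:55607275-55607304, minus strand): ctttgagcagctgtgcatcaacttcaccaa
The windows of Myh1 and Myh7 match that of Myh4 at 29 of 30 bases and that of Myh2 at 28 of 30. The Myh4 window had 2 WT and 15 Mbnl1 KO tags, and the Myh1, Myh2 and Myh7 windows had 2, 1 and 1 Mbnl1 KO tags, with 2, 0 and 0 WT tags. At this site the gene that each tag belongs to is uncertain.

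The densest clusters of the other heavy chains were smaller. In Myh1 it lay in exon 16, with 2 WT and 13 Mbnl1 KO tags, none of them in shared sequence, and it is shown as the cluster of that gene with the most tags:
Myh1 (chr11:67022518-67022567): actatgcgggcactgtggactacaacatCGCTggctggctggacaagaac
The top cluster of Myh2, in exon 24 (67002178 to 67002286), had 2 WT and 8 Mbnl1 KO tags, and 8 of the 10 have shared sequence. That of Myh7, in exon 16 (55607217 to 55607252), had 1 WT and 6 Mbnl1 KO tags, and all 7 have sequence found in another heavy chain, so their assignment is uncertain. Myh7 also hosts the microRNA gene Mir208b, where 0 tags lay.

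Mylpf encodes the fast regulatory light chain, which is phosphorylated in working muscle. It is a short gene (chromosome 7, 134355122 to 134357812, plus strand) with 6 WT and 47 Mbnl1 KO tags. The WT sets had 0, 14.3 and 25.5 normalised tags and the Mbnl1 KO sets had 104, 67.6 and 109, without overlap. In the WT set at 0, a count of 0 allows up to 63.8 normalised tags. Its ratio of 5.65 (2.41 to 16.2) was the highest of the 10, and by edgeR it rose by a log2 difference of 2.43 ± 0.54 (adjusted p = 0.000302), and by 1.75 ± 0.55 with TMM (edgeR adjusted p = 0.0327). Its TMM call was lost when any set but Mbnl1 KO set 2 was left out (edgeR adjusted p from 0.0615 to 0.153). Without the WT set with the most tags the ratio was 9.20. All of its tags were exonic. Per kb of exon it stood at 111 (81.9 to 148) in Mbnl1 KO muscle, an interval that overlapped those of Myh4 and Myh1. Its densest cluster, in exon 4 of 7 (134356940 to 134357024), had 2 WT and 14 Mbnl1 KO tags around a copy of CGCT in the coding sequence:
Mylpf (chr7:134356955-134356984): gaactcgaCGCTatgatgaaggaagccagt

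Mylk2 encodes the skeletal muscle light chain kinase, which phosphorylates the product of Mylpf. It had few tags (chromosome 2, 152737088 to 152748804, plus strand), at 21.3, 14.3 and 12.7 normalised tags in WT and 39.9, 45.1 and 43.7 in Mbnl1 KO muscle. The sets did not overlap and the ratio was 2.88 (1.05 to 9.83), but edgeR's test did not pass (log2 difference 1.47 ± 0.68, adjusted p = 0.0826). Its interval reached below 1 when any set but the first WT set was left out, with ratios from 2.61 to 3.04. Mylk2 was the only 1 of the 10 genes with most of its tags in UTRs, and 3 of 5 WT and 10 of 20 Mbnl1 KO tags lay in the 3′ UTR. A cluster there had 7 Mbnl1 KO tags from all 3 sets. WT had none, which at the WT depth allows up to 8.73 normalised tags. Its site holds a TGCT and a TGCC:
Mylk2 (chr2:152748710-152748737): ccaaccTGCTctcagcttgTGCCttgta

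Myl1 encodes the fast essential light chains, a longer form (MLC1F, transcript Myl1-001) and a shorter form (MLC3F, Myl1-002), which start from separate promoters. The gene (chromosome 1, 66970869 to 66991978, minus strand) had 42.5, 57.3 and 31.9 normalised tags in WT and 180, 214 and 182 in Mbnl1 KO muscle. The ratio was 4.28 (2.46 to 7.96), and by edgeR the gene rose by a log2 difference of 2.09 ± 0.40 (adjusted p = 4.59e-05), or 1.38 ± 0.39 with TMM (edgeR adjusted p = 0.0166). The latter call was lost without WT set 3 (edgeR adjusted p = 0.176) or Mbnl1 KO set 3 (0.0575). Unlike the heavy chains, Myl1 had most of its tags in introns, 8 of 15 in WT and 60 of 89 in Mbnl1 KO muscle. Over exons alone its ratio was 2.99 (1.28 to 8.08), and its exon level in Mbnl1 KO muscle was 34.4 normalised tags per kb (23.0 to 49.3), which overlapped the interval of Myh2.

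Mybpc1 encodes the slow form of myosin binding protein C, which is also made in fast fibres, and Mybpc2 the fast form. Both proteins bind the myosin rod and modulate the approach of the heads to actin. Mybpc1 (chromosome 10, 87981024 to 88067897, minus strand) had 63.8, 71.6 and 95.6 normalised tags in WT and 283, 293 and 255 in Mbnl1 KO muscle, and the ratio was 3.40 (2.25 to 5.31). By edgeR it rose by a log2 difference of 1.76 ± 0.36 (adjusted p = 8.93e-05), and with TMM by 1.06 ± 0.32 (edgeR adjusted p = 0.0282). With TMM it no longer passed when any set but Mbnl1 KO set 2 was left out (edgeR adjusted p from 0.0575 to 0.112). The largest cluster of Mybpc1, with 3 WT and 16 Mbnl1 KO tags, lay in the 3′ UTR in the last exon (87981154 to 87981239), around a TGCT that its densest bases show:
Mybpc1 (chr10:87981165-87981194, minus strand): gacacacccacTGCTttgaaatctgattga

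Mybpc2 (chromosome 7, 51757088 to 51780039, minus strand) had 0, 43.0 and 57.3 normalised tags in WT and 104, 90.1 and 109 in Mbnl1 KO muscle. The sets did not overlap, and the ratio was 2.36 (1.30 to 4.52). By edgeR it rose when scaled to all tags (log2 difference 1.23 ± 0.44, adjusted p = 0.0232) but not with TMM (0.53 ± 0.44, edgeR adjusted p = 0.466). The call scaled to all tags was also lost without WT set 1 or 2 and without Mbnl1 KO set 1 or 3, where the log2 difference ran from 1.01 to 1.23. Over exons alone the ratio was 1.28 (0.533 to 3.29), from 9 WT and 16 Mbnl1 KO tags, the lowest exon ratio of the 10 genes. None of its clusters had more than 4 tags, and the densest, in exon 13 of 28 (51769141 to 51769164), had 0 WT and 4 Mbnl1 KO tags from 2 of the sets. Per kb of exon, Mybpc1 stood above Mybpc2 in 5 of 6 sets, and in Mbnl1 KO muscle their levels were 26.9 (20.4 to 34.8) and 9.29 (5.31 to 15.1). In WT the merged levels were 6.43 (3.08 to 11.8) for Mybpc1 and 7.25 (3.32 to 13.8) for Mybpc2, with intervals that overlapped.

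Myom1 encodes myomesin, which crosslinks the myosin rods in the M-band. The gene is long (chromosome 17, 71368861 to 71476196, plus strand) and lies wholly within a lincRNA on the same strand, Gm16724, so its intronic tags could belong to either. It had 63.8, 64.5 and 95.6 normalised tags in WT and 235, 169 and 182 in Mbnl1 KO muscle, without overlap. The ratio was 2.64 (1.71 to 4.21). By edgeR it rose when scaled to all tags (log2 difference 1.36 ± 0.36, adjusted p = 0.00252) but not with TMM (0.67 ± 0.34, edgeR adjusted p = 0.198). The call scaled to all tags was lost with single-base tags left out (log2 difference 0.92, edgeR adjusted p = 0.0665). Introns held 22 of 27 WT and 77 of 99 Mbnl1 KO tags.

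Fast and slow genes were compared within each table, which needs no scaling. The 6 fast genes (Myh1, Myh2, Myh4, Myl1, Mylpf and Mybpc2) had 256 WT and 992 Mbnl1 KO tags, or a ratio of 2.79 (2.43 to 3.22). The 2 slow genes (Myh7 and Mybpc1) had 32 WT and 149 Mbnl1 KO tags, or a ratio of 3.36 (2.28 to 5.08), of which Mybpc1 gave 28 and 132. The fast against slow odds ratio, Mbnl1 KO over WT, was 0.832 (exact interval 0.536 to 1.26), so no difference between the lists could be detected at this depth. By set, there were 6.25, 8 and 8.41 fast tags per slow tag in WT and 6.63, 6.23 and 7.05 in Mbnl1 KO muscle, which overlapped (exact two-sided permutation test, n = 3 each, p = 0.30). With Mybpc1 left out, the slow list rests on the 21 tags of Myh7 alone.

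The pooled tags of the 10 genes were less often intronic than those of other genes, most so at the fast heavy chains. Of the tags of all 10, 24.1% in WT (exact binomial interval 19.5 to 29.1) and 24.9% in Mbnl1 KO muscle (22.6 to 27.4) had their midpoint in an intron. The odds ratio between the tables was 1.05 (0.781 to 1.41). The other protein-coding genes with at least 20 tags had 75.6% of their WT tags and 57.4% of their Mbnl1 KO tags in introns. By set, the intron share of the 10 genes was 24.2%, 28.2% and 21.5% in WT and 23.9%, 25.4% and 26.7% in Mbnl1 KO muscle (exact permutation test, p = 0.90). That of the other genes was 78.5%, 79.9% and 71.8% in WT and 58.8%, 51.9% and 59.1% in Mbnl1 KO muscle, without overlap (exact permutation test, p = 0.10, the smallest possible). With single-base tags left out, the shares of the other genes were 70.6%, 71.2% and 65.0% against 55.8%, 48.2% and 55.5%, again without overlap. The 3 fast heavy chains had 22 of 220 WT tags (10%) and 64 of 807 Mbnl1 KO tags (7.93%) in introns. The other 7 genes had 55 of 100 WT tags (55.0%, interval 44.7 to 65.0) and 250 of 453 Mbnl1 KO tags (55.2%, 50.5 to 59.8) there, below the share of other genes in WT and with an interval that held it in Mbnl1 KO muscle. Some muscle genes outside the 10 also had few tags outside exons. Exons were touched by 71 of 72 WT and 189 of 193 Mbnl1 KO tags at Acta1, and by 100 of 117 and 335 of 393 at Atp2a1. At Tnnt3 these were 29 of 55 and 78 of 188.

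The exonic tags of the 10 genes were mostly coding, whereas those of other genes were mostly in 3′ UTRs. The 10 genes had 225 WT and 876 Mbnl1 KO tags in coding sequence and 12 and 51 in 3′ UTRs. The other genes had 3404 and 13478 coding tags, and 11074 and 47618 in 3′ UTRs. Coding sequence makes up 5817 nt of the 6038 nt of annotated exon in Myh4, 5826 of 6354 in Myh1 and 5826 of 7138 in Myh2, and the part of gene structure in this split was not tested.

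Set against tags of the same kind, the coding tags of the 10 genes had a ratio close to that of other genes, while the intervals for intronic tags did not overlap. The merged ratio over coding sequence was 2.81 (2.42 to 3.26) in the 10 genes and 2.85 (2.75 to 2.96) in the others. In 3′ UTRs it was 3.06 (1.61 to 6.31) and 3.10 (3.04 to 3.17). In introns it was 2.94 (2.28 to 3.82) in the 10 genes, from 77 WT and 314 Mbnl1 KO tags, and 1.30 (1.29 to 1.31) in the others. With single-base tags left out, the intron ratios were 2.09 (1.61 to 2.73) and 1.17 (1.16 to 1.19). Muscle genes were not set apart among the others, so a high intronic ratio is not shown to be particular to the 10. At Unc45b, another thick filament gene, only 2 of 114 WT and 10 of 400 Mbnl1 KO tags touched exons. Its ratio over all tags was 2.53 (2.05 to 3.14). Counted over exons alone, edgeR scaled to all tags called 7 of the 9 genes that kept 20 tags higher, against 75.5% of genes. With TMM over exons edgeR called 0 of the 9 higher, against 0% of genes (0 of 1145). At an unadjusted p under 0.05 these counts were 0 of the 9 and 98 of 1145. In that fit the log2 difference was positive at 6 of the 9 genes, with a median of 0.048, and turned negative at Mybpc2 (-1.15), Myh4 (-0.31) and Myh7 (-0.0051). DESeq2 was not run on exon counts.

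**Figure D4:**
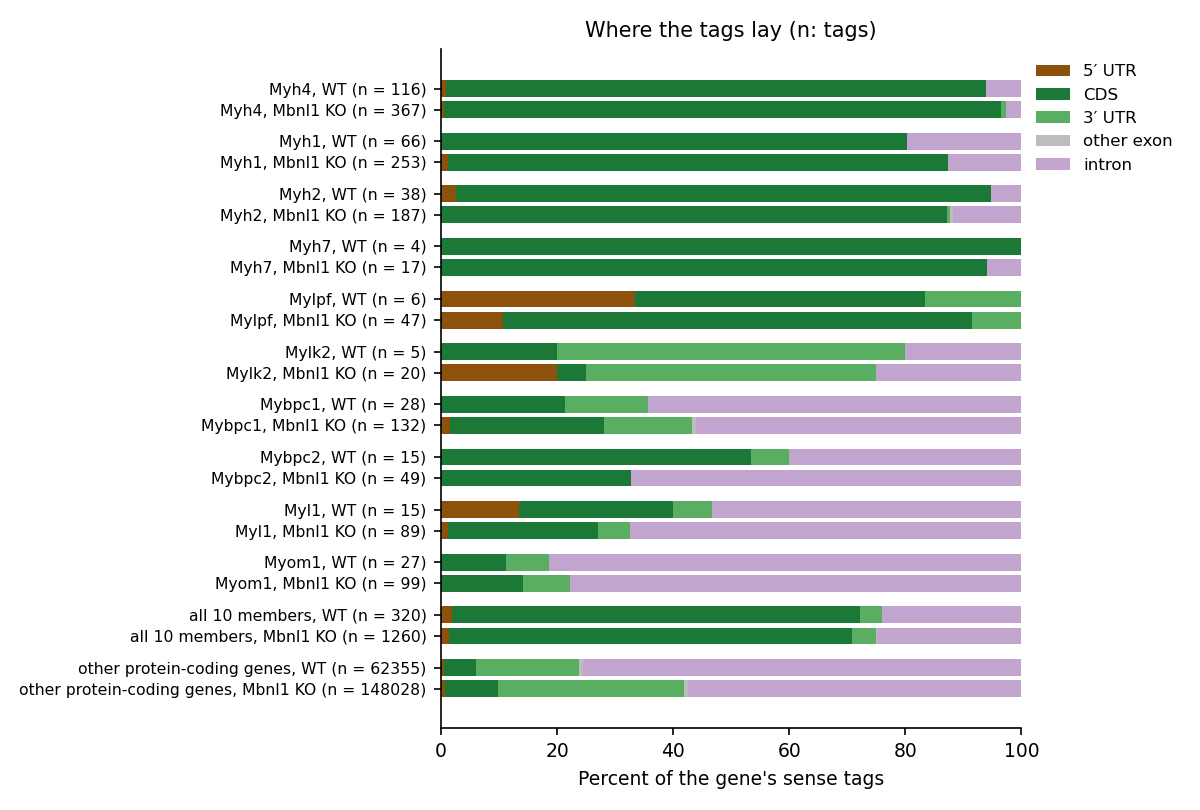
Share of the sense tags of each gene by the region that holds the tag's midpoint, for WT and Mbnl1 KO, with the number of tags in brackets. The heavy chains are mostly coding, from 80.3% in WT Myh1 upward, Myl1, Mybpc1 and Myom1 are mostly intronic, as is Mybpc2 in Mbnl1 KO muscle (67.3%), and the bottom bars show 57.4% intronic tags for other genes in Mbnl1 KO muscle against 24.9% for the 10 genes.

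Intronic tags of 2 of the genes gathered beside annotated alternative exons. In Myom1, exon 18 of 38 (71431543 to 71431836, 294 nt) codes for the EH segment of embryonic myomesin and is skipped in the other annotated transcript. Within 500 nt of it lay 3 WT and 14 Mbnl1 KO tags, 15 of the 17 upstream, 2 in the exon and 0 downstream (ratio 3.36, interval 0.939 to 18.3). The WT sets had 2, 0 and 1 of these tags and the Mbnl1 KO sets 9, 2 and 3, which is 42.5, 0 and 6.37 against 35.9, 22.5 and 21.9 normalised tags. WT set 1 was above the 3 Mbnl1 KO sets, so the genotypes overlapped. The largest cluster of Myom1, with 3 WT and 10 Mbnl1 KO tags from 3 Mbnl1 KO sets, ended 83 bases before that exon. It is shown as the site of that gene with the most tags, with its 2 YGCY motifs in capitals:
Myom1 (chr17:71431421-71431459): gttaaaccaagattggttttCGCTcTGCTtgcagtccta
The whole intron upstream (71430236 to 71431542, 1307 nt), a window chosen after its tags were seen, had 5 WT and 28 Mbnl1 KO tags, or 25.2 tags per kb with the tables pooled. By set these were 63.8, 7.16 and 6.37 normalised tags in WT and 67.8, 22.5 and 65.6 in Mbnl1 KO muscle, so here too the genotypes overlapped. All introns of Myom1 together had 0.974 tags per kb, and the intron downstream of the exon had 1 WT and 0 Mbnl1 KO tags in 1741 nt. The YGCY motif occurred 0.689 times per 100 nt in the upstream intron and 1.21 times in the downstream one, against 0.997 in the uncovered intron sequence of the 10 genes.

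In Myl1, neither annotated form carries the second exon of the other. The 25 nt exon of Myl1-002 (66981092 to 66981116) had 3 WT and 26 Mbnl1 KO tags within 500 nt (ratio 6.25, interval 1.91 to 32.3), 23 of the 29 upstream of it, and the Mbnl1 KO sets had 9, 8 and 9 of them. The 28 nt exon of Myl1-001 (66980820 to 66980847) had 2 WT and 7 Mbnl1 KO tags in its window, which overlaps the other. The intron between the first exon of Myl1-002 and its 25 nt exon (66981117 to 66981849, 733 nt), again chosen after its tags were seen, held 2 WT and 30 Mbnl1 KO tags. By set these were 0, 1 and 1 tags in WT and 10, 9 and 11 in Mbnl1 KO muscle. It had 43.7 tags per kb, against 3.52 for all introns of the gene, which include it, and as the window was chosen for its tags these values are a description. Its 3 largest clusters each had tags from all 3 Mbnl1 KO sets, with 0, 1 and 0 WT tags and 9, 7 and 6 Mbnl1 KO tags in the order below, and a cluster of 9 Mbnl1 KO and 0 WT tags lay in intron 6:
Myl1, intron 1, densest bases (chr1:66981367-66981396, minus strand): cttatctgacataTGCTaaatatagacagc
Myl1, intron 1 (chr1:66981492-66981528, minus strand): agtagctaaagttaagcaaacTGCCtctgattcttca
Myl1, intron 1 (chr1:66981604-66981645, minus strand): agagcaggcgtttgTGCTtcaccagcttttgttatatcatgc
Myl1, intron 6 (chr1:66971464-66971507, minus strand): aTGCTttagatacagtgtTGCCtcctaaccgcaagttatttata
Each of these stretches holds at least 1 YGCY motif. Over the whole intron of 733 nt the motif occurred 0.955 times per 100 nt. The tables place each tag in 1 block on the genome, so reads across splice junctions are not in them and exon inclusion cannot be read from these data.

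**Figure D5:**
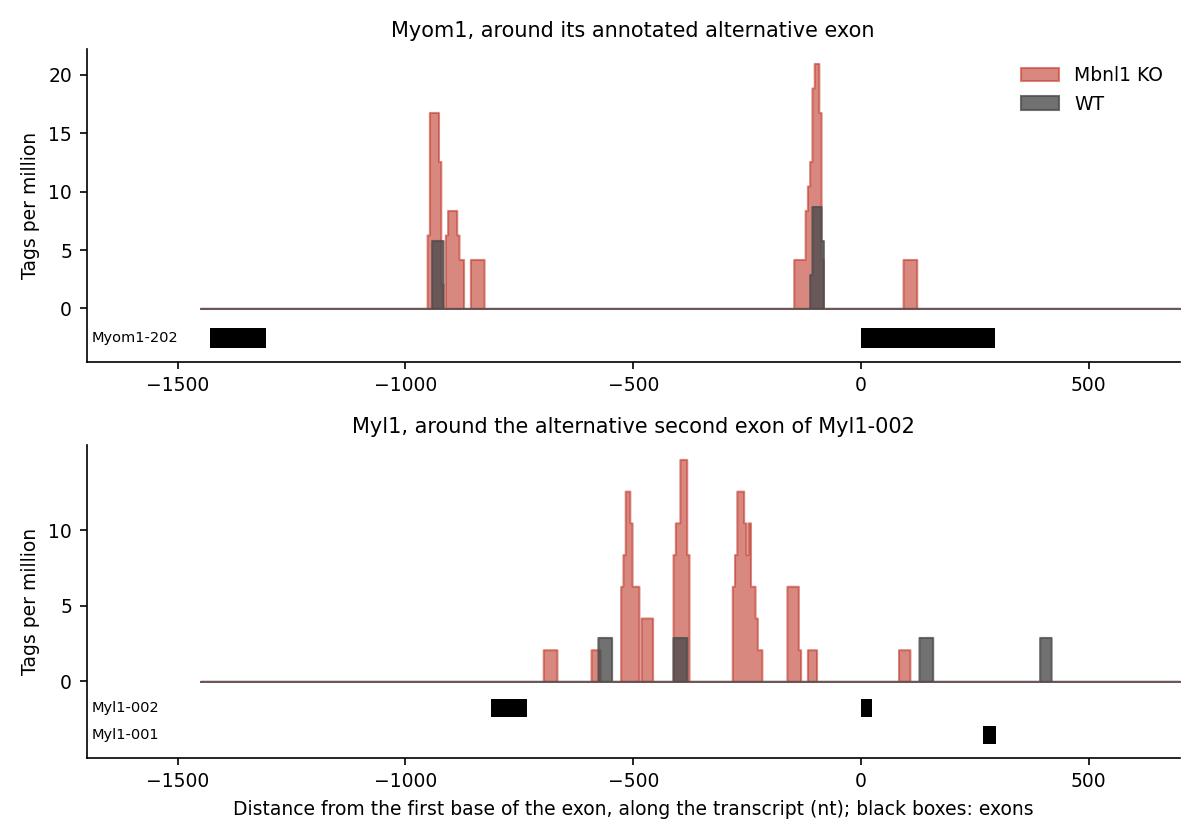
Normalised tags covering each position around the alternative exon of Myom1 (top) and the alternative second exon of Myl1-002 (bottom), by distance from the first base of the exon along the transcript, with exons as black boxes. Mbnl1 KO tags gather upstream of both exons, WT tags are few, and no tag lies in the 500 nt downstream of the Myom1 exon.

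At least 5 tags also lay around 3 other annotated alternative exons. Exon 35 of Myh2 (67007113 to 67007316, 204 nt, skipped in another annotated transcript) had 5 WT and 18 Mbnl1 KO tags in its window, with 12 upstream, 9 in the exon and 2 downstream. In Mybpc1 a 59 nt exon (87984022 to 87984080, exon 27 of 29 in Mybpc1-002) had 2 WT and 5 Mbnl1 KO tags, and a 43 nt exon (87982646 to 87982688), skipped only by a transcript with a retained intron, had 0 WT and 9 Mbnl1 KO tags.

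The density of YGCY motifs was higher in sequence covered by tags than in the uncovered sequence of the same genes. In exons of the 10 genes there were 1.55 motifs per 100 nt of covered sequence (195 in 12580 nt) and 1.18 per 100 nt of uncovered sequence. In introns the densities were 2.35 (125 in 5311 nt) and 0.997. Of all windows of 30 nt, 29.7% in exons and 23.6% in introns held the motif. With single-base tags left out, 38.3% of WT and 43.4% of Mbnl1 KO tags over the 10 genes contained it, against 45.8% and 53.5% over other genes. The other genes here gave 63470 WT tags after that filter. Those of the region shares above gave 62355 before it, so the sets differ. Among coding tags alone these shares were 32.4% and 37.1% in the 10 genes and 48.9% and 51.3% in the others. In each of the 6 sets, a smaller share of coding tags held the motif in the 10 genes than in other genes, at 27.3% to 38.7% against 43.0% to 52.3%. Tags in 1 gene overlap, so these shares are descriptions and were not tested.

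Of the 20 other thick filament and M-band genes that were listed, all are annotated and 8 had at least 20 tags. With edgeR scaled to all tags 7 of these 8 were higher in Mbnl1 KO muscle, against 29.6% of all genes, and with TMM 1 was, against 5.25%. That gene was Myh3, the embryonic heavy chain, with 2 WT and 32 Mbnl1 KO tags, at a ratio of 11.5 (2.94 to 99.3), and a log2 difference of 3.34 (edgeR adjusted p = 0.000196), or 2.69 with TMM (edgeR adjusted p = 0.0156). Unc45b, the chaperone that folds myosin heads, had the highest number, 114 WT against 400 Mbnl1 KO tags (ratio 2.53), nearly all outside its exons, where 2 and 10 tags lay. Mylk4, a kinase gene, had 69 and 215 tags (ratio 2.25). The perinatal heavy chain Myh8 had 19 and 70 (ratio 2.66), the extraocular heavy chain Myh13 had 10 and 40 (2.88), the M-protein gene Myom2 had 12 and 49 (2.94), and the myosin assembly factor Smyd1 had 9 and 40 (3.20). How many tags of Myh3, Myh8 and Myh13 have sequence shared with another heavy chain is not given here. The gene that those tags belong to is therefore uncertain. Trim55, which encodes a muscle RING finger protein, had 5 and 15 and did not pass the test. The slow light chains Myl2 and Myl3 had 0 WT tags, with 1 and 3 Mbnl1 KO tags.

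The 9 non-muscle and smooth muscle myosin genes had 84 WT and 185 Mbnl1 KO tags, or a ratio of 1.59 (1.22 to 2.08). Of the 5 with at least 20 tags, 1 was higher with edgeR scaled to all tags, against 29.6% of all genes. It was Myl12a, a regulatory light chain gene, at 8 WT and 32 Mbnl1 KO tags. Its log2 difference was 1.49 (edgeR adjusted p = 0.0208), or 0.81 with TMM (edgeR adjusted p = 0.348). Myh9, the main non-muscle heavy chain, had 25 and 50 tags.

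The genes closest to Myh4 in where their tags lay were found by the distance between region shares (5′ UTR, coding, 3′ UTR and intron shares in each table, 8 values) over 391 other protein-coding genes with at least 100 tags. They were mt-Co1 (distance 0.0948), Naca (0.102) and mt-Co2 (0.105), all with at least 97.9% coding tags in both tables. Their merged ratios were 2.77, 3.85 and 5.71. The shares rest on few WT tags, 37, 35 and 13.

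Markers of muscle and of other cell types were counted in the same way. The 9 fast muscle markers had a ratio of 2.47 (2.19 to 2.78), with 824 to 1300 normalised tags in the WT sets and 2558 to 2704 in the Mbnl1 KO sets. Of these 9, edgeR called 8 higher scaled to all tags, against 29.6% of genes, and 2 with TMM, against 5.25%. The 8 slow muscle markers had 27 WT and 82 Mbnl1 KO tags, or a ratio of 2.19 (1.40 to 3.52), and 6 of them had fewer than 20 tags, among them the slow troponin genes Tnnt1 (1 and 0) and Tnni1 (6 and 1, ratio 0.12, interval 0.0026 to 0.990) and the calsequestrin gene Casq2 (2 and 15, ratio 5.41, interval 1.26 to 48.7). Atp2a2, the slow muscle calcium pump, had 9 and 42 tags (ratio 3.36) and was higher in Mbnl1 KO muscle with edgeR scaled to all tags (adjusted p = 0.00516) but not with TMM (edgeR adjusted p = 0.167). The 3 fibroblast markers, of which Col1a1 and Col1a2 were called higher by edgeR with both scalings, had a ratio of 2.93 (2.47 to 3.49), with 404 to 523 and 1277 to 2016 normalised tags. The 3 endothelial markers had a ratio of 1.70 (1.14 to 2.56). Of these Cdh5 had 13 and 55 tags (ratio 3.05) and was higher with edgeR scaled to all tags (adjusted p = 0.00368) but not with TMM (edgeR adjusted p = 0.167), while Pecam1 had 16 and 18 (ratio 0.811) and Kdr 8 and 14 (ratio 1.26). The 3 fat markers had 1 WT and 18 Mbnl1 KO tags. The 3 macrophage markers had 15 and 18 tags, those of satellite cells 8 and 11, of smooth muscle 19 and 28, of blood 8 and 6 and of nerve 4 and 7. The part of cell composition in the differences at the 10 genes was not tested.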

How the data were processed

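Mbnl2 HITS-CLIP tags of quadriceps muscle were analysed as deposited. The authors filtered the reads, aligned them to mm9 with BWA, collapsed likely PCR duplicates and merged the 3 mice of each genotype; the BWA version is not given in the sources used here. Column 5 of each table holds the count of reads that the authors collapsed into a tag, without normalization, and each line is 1 tag. A tag counted for a gene when it overlapped the gene body on its strand (GENCODE vM1), and was divided by all tags of the table or set.

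The labels state no meaning for the display colours that were read as mice, and p-values over them measure the spread between these sets, which in WT may be of another kind. The design had foreseen no test, and the edgeR tests over the sets were added after the data were seen. Genes with at least 20 tags were fitted with quasi-likelihood F tests and Benjamini-Hochberg adjustment at 0.05. Colours did not pair the genotypes.

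Counts were made with Python 3.11.15, numpy 2.4.6, pandas 2.3.3, scipy 1.17.1, pysam 0.24.0 and biopython 1.88, and tests with R 4.3.3, edgeR 4.0.16 and DESeq2 1.42.0. The genome was indexed with samtools 1.23.1 and figures drawn with matplotlib 3.10.9. The counting and the edgeR fit were tested on simulated data. Ratios carry exact Clopper-Pearson intervals at 95%, and levels exact Poisson intervals, which cover counting error only. The precision is set by the 343554 WT and 476543 Mbnl1 KO tags, where a count of 0 (upper limit 3 tags) allows 8.73 and 6.30 tags per 1000000.

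The members and the gene and marker lists were chosen with earlier results of these data known. All 10 genes were named, with the cluster of most tags in each, any other cluster of at least 20 tags, and annotated alternative exons with at least 5 tags within 500 nt. Of the other thick filament genes, those with at least 20 tags were named, and genes most like Myh4 were taken from those with at least 100 tags. Myl12a was matched as 2900073G15Rik and Adgre1 as Emr1. Alternatives were other tag choices, scalings, filters, overlap rules and tools, and leaving out each set. A withheld item is not reported here.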

Additional observations from a re-analysis of the deposited data

How the results depend on the processing

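The direction of the pooled ratio held under each alternative that was run, and its size did not. It was 1.96 with single-base tags left out, 2.47 with identical tags collapsed, 2.48 when tags that share a 5′ end were collapsed, 6.27 for tags of at least 30 nt, 1.85 with tags of at least 2 reads and 1.55 with both that and single-base tags left out. It was 4.48 after thinning the Mbnl1 KO reads to the depth of WT, 3.94 with raw tags and 1.63 with the median gene over gene bodies set to 1. Setting the median gene over exons to 1 was not run. Over exons the pooled ratio was 2.80 (2.43 to 3.23), below the 3.20 of the median gene. The median ratio of the 10 genes was, in the same order but without the 5′ end setting, 1.97, 2.59, 5.74, 2.34, 1.96, 4.61, 4.13 and 1.70. Myh7 had 0 WT tags of at least 2 reads, gave no ratio there and counts as high in those medians. Leaving out 1 set gave a pooled ratio from 2.57 to 3.45, a median from 2.56 to 3.41 and 8 to 10 genes with an interval above 1. That number was 4 with single-base tags and 1-read tags both left out, where Mybpc2 turned to a ratio of 0.972 and an edgeR log2 difference of -0.041 (adjusted p = 0.982). With TMM the edgeR log2 difference of Mybpc2 was also below 0 with tags of at least 30 nt (-0.50), with tags of at least 2 reads (-0.21), with the latter and single-base tags left out (-0.26) and over exons (-1.15), where Myh4 (-0.31) and Myh7 (-0.0051) turned too. The cause was not tested.

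With edgeR scaled to all tags, 8 of 10 genes were called. When 1 set was left out, 7 to 8 of the 8 to 10 genes still tested were called. Over all genes this was 642 of 3431 (without WT set 2) to 1122 of 3292 (without WT set 3). With tags of at least 2 reads 0 of 8 were called, against 56 of 1742 genes (6 and 343 at an unadjusted p under 0.05). When single-base tags were left out too, 0 of 8 were called, against 13 of 1651 genes (4 and 217 unadjusted). With TMM 5 of 10 were called in the full data, and 2 with the replicate block by colour (154 of 3888 genes). It was 6 of 8 with tags of at least 30 nt (308 of 1249 genes) and 6 of 8 after thinning (271 of 2255). DESeq2 size factors gave 1 of 7 (48 of 1701 genes). With TMM and single-base tags left out 0 of 10 were called, against 7 of 3307 genes (4 and 333 unadjusted). TMM gave 0 of 8 with tags of at least 2 reads, against 5 of 1742 genes (1 and 128 unadjusted). With both filters it gave 0 of 8, against 4 of 1651 genes (0 and 124 unadjusted). Over exons only it gave 0 of 9, against 0 of 1145 genes (0 and 98 unadjusted). Leaving out 1 set left 1 to 4 calls with TMM. Without WT set 1 it was 2 of 10 (100 of 3732 genes called higher), without WT set 2 it was 1 of 10 (22 of 3431) and without WT set 3 it was 2 of 9 (168 of 3292). Without Mbnl1 KO set 1 it was 2 of 8 (142 of 2507), without set 2 it was 4 of 9 (100 of 3374) and without set 3 it was 1 of 8 (91 of 3179). The block took 1 call, Mybpc2, from the 8 with all tags (edgeR adjusted p = 0.0543; 824 of 3888 genes called), and with TMM it took Myh1, Mylpf and Mybpc1 (edgeR adjusted p = 0.0797, 0.0669 and 0.0653). Sets of the same colour had deviations that correlated at -0.063, 0.018 and -0.114, so the pairing was not used. The fast against slow odds ratio ran from 0.622 to 0.931 over 18 alternatives and the intron odds ratio from 0.885 to 1.18 over 15, all with intervals that included 1. Single genes had 188 ratios under alternatives. Of these 160 kept their call (an interval above 1 or not), 23 lost an interval above 1, 4 gained one and 1 fell below 1. All edgeR alternatives were chosen after seeing the data. Few WT tags limit Myh7, Mylk2 and Mylpf.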
